A study of Drosophila melanogaster with 2 samples.

Results

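The peaks described here are the 1808 called peaks of the deposited pooled list, out of 30000, that lie in the pericentromeric part of chromosome arm 3R and away from annotated start sites. They were chosen by position alone. The summit lay on 3R below 4200000 in the dm6 build, more than 500 bp from the start site of every gene other than a transposable element, and outside every annotated transposable element. The data are ChIP-seq of Su(var)2-HP2 from whole Drosophila melanogaster embryos collected at 0 to 10 h. Both biological replicates, numbered 4 and 6 in the labels, came from a transgenic line that stably carries Su(var)2-HP2 fused to GFP at its C terminus, and the fusion was precipitated with an antibody against GFP. There was 1 group and no untreated or wild-type group, so values are compared along the genome and from replicate to replicate. The promoter that drives the fusion is not given in the sources used here, and whole embryos mix all cell types of those ages.

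Su(var)2-HP2 is a chromatin protein of flies that binds HP1, the protein that recognises methylated lysine 9 of histone H3 and packs silent chromatin. Pericentromeric DNA is the main HP1-coated part of each chromosome. It is rich in transposable elements and their decayed copies, and the few genes in it often have very long introns filled with such sequence. Transposable elements are mobile DNA families such as the retrotransposons gypsy, 412 and 297, which have long terminal repeats, and Rt1b and Cr1a, which do not.

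Each replicate has its own list of 30000 peaks, the pooled list was made from both, and a further list of the strongest pooled peaks passed the authors' limit on the irreproducible discovery rate (IDR), a measure of how well replicates agree. The signal value of a peak is the authors' score from the peak calling, on a scale not given in the sources used here. Relative signal is that value as a multiple of the median over the top peaks of its own list, taken in the number that the IDR list holds, and it lets the replicates be set side by side. The window of a peak is the 201 bp centred on its summit. Peaks are named by s and the position of the summit on 3R, counted from 1. The files hold no read numbers, so the depth is unknown. Nothing in the labels says that the replicates share a batch, and with n = 2 an SD is itself known poorly.

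Of the 1808 peaks, 30 were in the IDR list and had the highest signal values. The windows of 4 of them are printed first because they show the kinds of sequence found under strong summits. All sequences are from the RefSeq copy of the dm6 assembly, 5′ to 3′, and these 4 are read on the plus strand. The window of s3789797, the strongest, is chr3R:3789697-3789897, between genes, and its capitals mark the 11 bases at the summit. The window of s2858650 is chr3R:2858550-2858750, in an intron of Pzl, and its capitals mark CACGTG. The window of s3734192 is chr3R:3734092-3734292, between genes beside Tim17b, and its capitals mark TATCGATA. The window of s3374341 is chr3R:3374241-3374441, between genes, and its capitals mark an 8-base word that occurs at 2 places 55 bp apart, in a stretch where 68.5% of bases equal the base 55 bp further on.
s3789797: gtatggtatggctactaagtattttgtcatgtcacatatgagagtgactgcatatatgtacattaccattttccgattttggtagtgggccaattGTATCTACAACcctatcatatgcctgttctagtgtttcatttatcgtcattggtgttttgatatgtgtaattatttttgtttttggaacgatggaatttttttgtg
s2858650: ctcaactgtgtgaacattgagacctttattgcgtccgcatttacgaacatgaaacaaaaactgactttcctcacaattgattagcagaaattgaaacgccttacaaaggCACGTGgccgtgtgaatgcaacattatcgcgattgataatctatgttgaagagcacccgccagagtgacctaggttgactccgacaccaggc
s3734192: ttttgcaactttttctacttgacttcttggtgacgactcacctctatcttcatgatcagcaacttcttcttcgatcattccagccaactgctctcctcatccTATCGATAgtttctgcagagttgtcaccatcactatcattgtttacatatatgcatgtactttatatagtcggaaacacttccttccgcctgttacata
s3374341: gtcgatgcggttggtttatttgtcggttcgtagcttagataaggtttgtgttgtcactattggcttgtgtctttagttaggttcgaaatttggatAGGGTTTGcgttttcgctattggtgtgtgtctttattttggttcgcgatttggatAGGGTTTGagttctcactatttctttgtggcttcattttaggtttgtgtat

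Among the 30 IDR peaks, 10 summits fell into 2 groups that share sequence. Each group had 5 summits in 4 called intervals. For each interval the shared stretch, shortened in the second group, is printed so that the copies can be compared. Capitals mark runs of 6 or more bases that are the same in all 4 sequences of the group. In the first group the stretches were chr3R:3118052-3118241 on the plus strand, chr3R:864464-864654 on the minus strand, chr3R:727326-727516 on the plus strand and chr3R:2134368-2134560 on the minus strand. They were identical at 152 of 193 aligned positions, and the longest run was 27 bases. The summits s864692 and s727296 lay 38 and 30 bp outside their stretch.
s3118061: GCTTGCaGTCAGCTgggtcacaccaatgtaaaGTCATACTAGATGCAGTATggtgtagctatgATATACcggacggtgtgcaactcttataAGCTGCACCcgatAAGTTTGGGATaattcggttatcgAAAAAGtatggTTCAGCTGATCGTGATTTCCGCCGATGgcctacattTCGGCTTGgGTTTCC
s864692: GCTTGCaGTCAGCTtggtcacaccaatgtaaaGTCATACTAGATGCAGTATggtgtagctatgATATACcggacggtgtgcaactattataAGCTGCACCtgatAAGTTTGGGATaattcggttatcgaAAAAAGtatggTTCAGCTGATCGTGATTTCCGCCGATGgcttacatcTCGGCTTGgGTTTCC
s727296: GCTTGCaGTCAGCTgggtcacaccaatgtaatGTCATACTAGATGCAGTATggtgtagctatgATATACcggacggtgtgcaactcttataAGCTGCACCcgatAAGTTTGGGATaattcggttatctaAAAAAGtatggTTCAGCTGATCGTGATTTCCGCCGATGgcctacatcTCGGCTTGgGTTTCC
s2134551: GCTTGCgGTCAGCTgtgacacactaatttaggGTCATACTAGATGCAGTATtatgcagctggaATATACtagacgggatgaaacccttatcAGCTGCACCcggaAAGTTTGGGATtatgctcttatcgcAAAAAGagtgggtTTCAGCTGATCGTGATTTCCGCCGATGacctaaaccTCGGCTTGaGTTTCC

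In the second group the stretches were chr3R:3103764-3103962 on the plus strand and chr3R:3974609-3974809, chr3R:2198535-2198734 and chr3R:1815848-1816018 on the minus strand. They were identical at 161 of 201 aligned positions, and the longest run was 59 bases. Only part of the shared sequence is printed, since pairs of this group aligned over 317 to 503 bp.
s3103879: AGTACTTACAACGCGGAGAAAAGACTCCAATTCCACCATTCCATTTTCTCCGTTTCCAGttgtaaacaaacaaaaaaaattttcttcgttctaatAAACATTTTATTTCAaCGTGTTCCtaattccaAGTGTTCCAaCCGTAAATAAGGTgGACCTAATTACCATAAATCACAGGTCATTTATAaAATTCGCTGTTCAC
s3974744: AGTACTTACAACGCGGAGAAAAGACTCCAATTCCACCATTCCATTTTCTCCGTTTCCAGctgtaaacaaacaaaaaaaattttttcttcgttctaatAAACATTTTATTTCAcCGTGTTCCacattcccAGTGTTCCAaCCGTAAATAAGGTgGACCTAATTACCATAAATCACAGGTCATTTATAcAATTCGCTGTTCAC
s2198684: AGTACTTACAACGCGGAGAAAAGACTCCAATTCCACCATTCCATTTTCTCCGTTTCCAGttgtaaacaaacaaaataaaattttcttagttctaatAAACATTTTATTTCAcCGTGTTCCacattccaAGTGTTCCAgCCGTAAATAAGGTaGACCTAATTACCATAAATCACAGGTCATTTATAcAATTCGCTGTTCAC
s1815957: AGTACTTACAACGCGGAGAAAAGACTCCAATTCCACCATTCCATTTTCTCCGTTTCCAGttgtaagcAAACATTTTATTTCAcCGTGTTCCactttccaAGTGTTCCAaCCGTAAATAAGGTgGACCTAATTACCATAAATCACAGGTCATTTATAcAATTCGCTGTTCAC

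The strongest peak, s3789797, lay between genes, 39434 bp from the nearest start site, that of CG41128. Its signal value of 2965 ranked 33 in the whole pooled list, and its called interval was 1560 bp wide. Its relative signal was 12.6 in replicate 4 and 15.5 in replicate 6, a mean of 14.05 ± 2.11 (SD, n = 2). In both replicates it thus stood far above the typical strong peak of the list, which has a relative signal of 1. Its window, printed above, aligned to an annotated copy of the retrotransposon 412 with 78.0% identity over 182 bp. A wider search found sequence like it at 113 other places of the assembly, and at 0 of them was the identity 90% or more. So the window is a diverged relative of a repeated element and still single-copy, since every 50-base word in it occurs at 1 place only. Both IDR summits s3786885 and s3788343 lie within 3 kb of it, with signal values of 203.8 and 168.2.

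The next peaks were lower by 2 times or more in mean relative signal and lay in introns of the largest genes. Peak s3118061, in an intron of Pzl and 145521 bp from its start site, had a relative signal of 4.18 in replicate 4 and 9.08 in replicate 6, a mean of 6.63 ± 3.46 (SD, n = 2). Pzl encodes a relative of the Piezo mechanosensitive ion channels. Peak s1212840, in an intron of the myosin gene Myo81F, had a relative signal of 2.03 in replicate 4 and 4.83 in replicate 6, a mean of 3.43 ± 1.98 (SD, n = 2). Its window is like the retrotransposon 297, with 88.1% identity over 201 bp. Replicate 6 was more than 2 times higher at both of these peaks, so the spread is wide compared with that of s3789797. A second summit in the interval of s1212840, s1213040, was like the retrotransposon Idefix and had a relative signal of 1.16 in replicate 4 and 2.85 in replicate 6.

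Peak s2858650, in another intron of Pzl, had a relative signal of 2.27 in replicate 4 and 3.72 in replicate 6, a mean of 2.99 ± 1.03 (SD, n = 2). It is the strongest of the IDR peaks whose window aligned to no annotated element, and its sequence was found at 0 other places. Its GC share was 44.8%, against 36.8% on average over the 30 IDR peaks. Peak s2412001, in an intron of Myo81F, had a still higher GC share of 52.2% and aligned to R1A1, a retrotransposon family that inserts into ribosomal RNA genes. Its relative signal was 2.10 in replicate 4 and 1.38 in replicate 6. Peak s3374341, with the 55-bp repeat and 51531 bp from the start site of spok, a cytochrome P450 gene of ecdysone synthesis, had a relative signal of 2.24 in replicate 4 and 1.497 in replicate 6. These last 2 peaks were higher in replicate 4, unlike most of the others.

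Several strong summits lay a short way outside the 500 bp limit, beside genes. Peak s3748898, 1465 bp upstream of CG41128, had a relative signal of 2.55 in replicate 4 and 2.62 in replicate 6, a mean of 2.59 ± 0.0481 (SD, n = 2). Peak s3734192, 663 bp upstream of the mitochondrial import gene Tim17b, had a relative signal of 2.11 in replicate 4 and 2.65 in replicate 6, a mean of 2.38 ± 0.385 (SD, n = 2). Peak s3845949, 780 bp upstream of CG41099, had a relative signal of 1.31 in replicate 4 and 2.12 in replicate 6, a mean of 1.72 ± 0.575 (SD, n = 2). These 3 shared a called interval with a summit at the start site of the same gene, in intervals of 3155, 3094 and 2524 bp, so they are shoulders of broad calls as much as separate sites. In all, 7 of the 1808 peaks shared an interval with a start-site summit. Peak s3843100, 3629 bp upstream of CG41099, had an interval of its own and a relative signal of 1.62 in replicate 4 and 3.07 in replicate 6. Peak s3621160, 1983 bp upstream of Alg-2, which encodes a small calcium-binding protein, had a relative signal of 1.02 in replicate 4 and 2.03 in replicate 6.

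The rest of the 15 strongest came from the shared-sequence groups. Peak s3103879, in an intron of Pzl, had a relative signal of 1.11 in replicate 4 and 2.49 in replicate 6. Peak s864692, in an intron of Myo81F, had a relative signal of 1.07 in replicate 4 and 2.30 in replicate 6. Peak s3974744, between genes and 103195 bp from the start site of CG42402, had a relative signal of 1.01 in replicate 4 and 2.02 in replicate 6. At these 3 peaks the values in replicate 6 were about 2 times those in replicate 4. Over the 30 IDR peaks, 29 were matched by a summit within 100 bp in both replicate lists, and 26 of these 29 were higher in replicate 6. Their median relative signal was 1.07 in replicate 4 and 1.497 in replicate 6. The median difference, replicate 6 minus replicate 4, was 0.50 on the log2 scale, against 0.06 over the 1893 IDR peaks of the whole genome that were matched in both lists. Of those 1893, 1035 were higher in replicate 6. The part of the replicate difference that comes from the samples or from the calling was not tested. Peak s3118260, a second summit in the interval of s3118061, was the exception without a match in replicate 6.

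**Figure D1:**
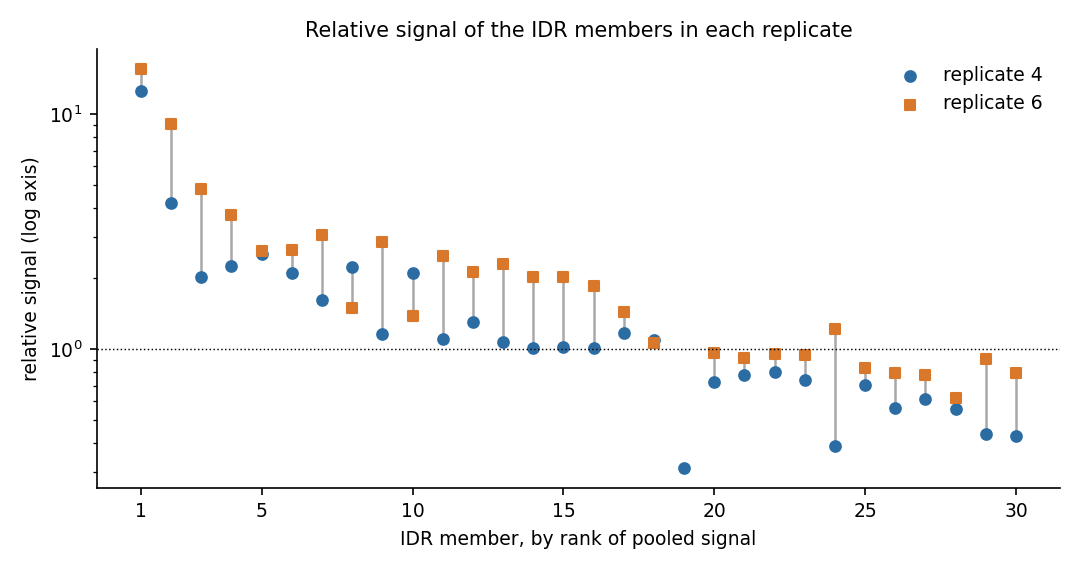
Relative signal (log axis) of the 30 IDR peaks in replicate 4 (circles) and replicate 6 (squares), ordered by pooled signal, with a grey line joining the replicates; the dotted line at 1 is the median over the top peaks of each list. Of the 29 peaks with both values, 26 are higher in replicate 6, and the strongest stands at 12.6 and 15.5.

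Both sequence groups exist in many copies, of which some were called and some were not. The sequence of s3118061 had 77 copies on the assembled chromosomes and 38 more on unplaced scaffolds, and the sequence of s3103879 had 43 and 28. A pooled summit lay within 100 bp of 17 of the 77 copies of the first group (22.1%), and an IDR summit of 7 (9.09%). In the second group 23 of 43 copies had a pooled summit (53.5%) and 11 an IDR summit (25.6%). In pericentromeric 3R, 9 of 21 copies of the first group had a pooled summit and 4 an IDR summit. There all 7 copies of the second group had a pooled summit and 4 an IDR summit. Of the other 36 copies of that group, 16 had a pooled summit and 7 an IDR summit. In each group the 4 copies with an IDR summit on 3R are the called intervals that defined the group. The counts on 3R were thus set in part by that choice and cannot be compared with those elsewhere. Signal at called copies of the second group reached 1052 elsewhere in the genome, above the 366.5 of s3103879. So strong calls on this sequence were found both inside and outside pericentromeric 3R.

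Copies with a summit had, in the median, more sequence of their own. The share of 50-base words that occur once in the assembly had a median of 0% in the copies of the first group without a summit, 79.5% in those with a pooled summit and 79.5% in those with an IDR summit. In the second group these medians were 0%, 29.9% and 44.4%. Single copies of the first group went the other way: 3 with a summit had no single-copy word, and 6 without one were over 50% single-copy. Reads from copies that are alike cannot be placed uniquely, and how the authors treated such reads is not given in the sources used here. Its part in which copies were called was not tested. Identity to the group's strongest peak had a median of 83.8% in copies of the first group without a summit, 84.7% in those with a pooled summit and 95.7% in those with an IDR summit. In the second group these medians were 83.6%, 90.02% and 90.3%, and in both groups the ranges overlapped. The strongest peak itself counts among the copies, as do the other 3R intervals that defined each group. Those were grouped because their sequences align, so the identity of copies with an IDR summit was set in part by that choice.

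**Figure D2:**
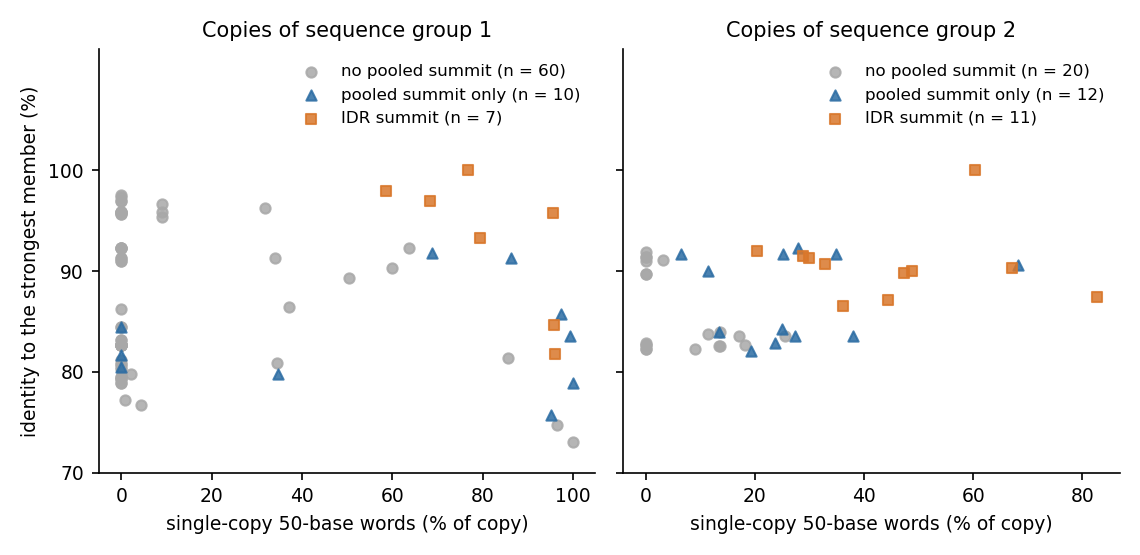
Each point is a copy, on the assembled chromosomes, of the sequence of s3118061 (group 1) or s3103879 (group 2). The horizontal axis is the percentage of its 50-base words that occur once in the assembly, and the vertical axis its percent identity to that peak. Grey circles have no pooled summit within 100 bp (60 and 20 copies), triangles a pooled summit only (10 and 12) and squares an IDR summit (7 and 11), and the median horizontal position without a summit is 0 in both groups.

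The family name given to such sequence depends on the annotation. Of the 77 copies of the first group, 6 overlapped an annotated element, and all 6 overlapped gypsy12. The window of s3118260 aligned best to gypsy12 too. Those of s3118061, s864692 and s727296 aligned best to intervals named Rt1b, and that of s2134551 to F. Of the 43 copies of the second group, 6 overlapped an annotated element, 5 of them GATE, while the windows of s3103879 and s3974744 aligned best to Stalker4 with 97.02% and 97.5% identity. gypsy12, GATE and Stalker4 are retrotransposons with long terminal repeats. An annotated interval can hold another element inserted in it, so a best match names the interval and not always the family. Among the 30 IDR peaks, 6 had their sequence at no other place, 5 at 1 to 10 other places and 19 at over 10.

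Element-like sequence was common under the whole set of 1808 peaks. Although all lie outside annotated elements by the rule, 1187 (65.7%) had a window that aligned over the summit to an annotated element, and in the replicate lists the share was 65.0% ± 0.92 (SD, n = 2). Identity had a median of 87.8%, and 105 families were represented. Cr1a had 115 peaks, the short transposon INE-1 73, Rt1b 53, 297 49, Idefix 34 and the DNA transposon 1360 31. Median signal values were close across these families, from 27.7 for 1360 to 36.5 for 297. On a regular grid of 201-bp windows at every 1000 bp under the same position rule, 71.0% of windows were element-like, and 67.4% of those that were mostly single-copy. The element-like share of the peaks was thus not above that of their surroundings. Annotated elements cover 8.50% of pericentromeric 3R, against 18.3% on 3L and 20.4% on 2L, while soft-masked bases, which the assembly marks as repeats, make up 44.2% of it, so much of its repeated sequence carries no element annotation.

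Where the peaks did differ from the grid was in copy number. Of the 1808 windows, 1718 (95.0%) were mostly single-copy, meaning that over 50% of their 50-base words occur once in the assembly, and the replicate lists gave 95.0% ± 0.844 (SD, n = 2). On the grid the share was 42.6%. The soft-masked share was 27.0% in the windows of the peaks and 42.5% on the grid. The same gap was present in the other pericentromeric parts chosen by the same rule, with 94.6% of peaks against 46.9% of the grid on 3L, 96.2% against 54.9% on 2L and 96.1% against 48.5% on X. It is therefore shared with them, and the part that read placement has in it was not tested.

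**Figure D3:**
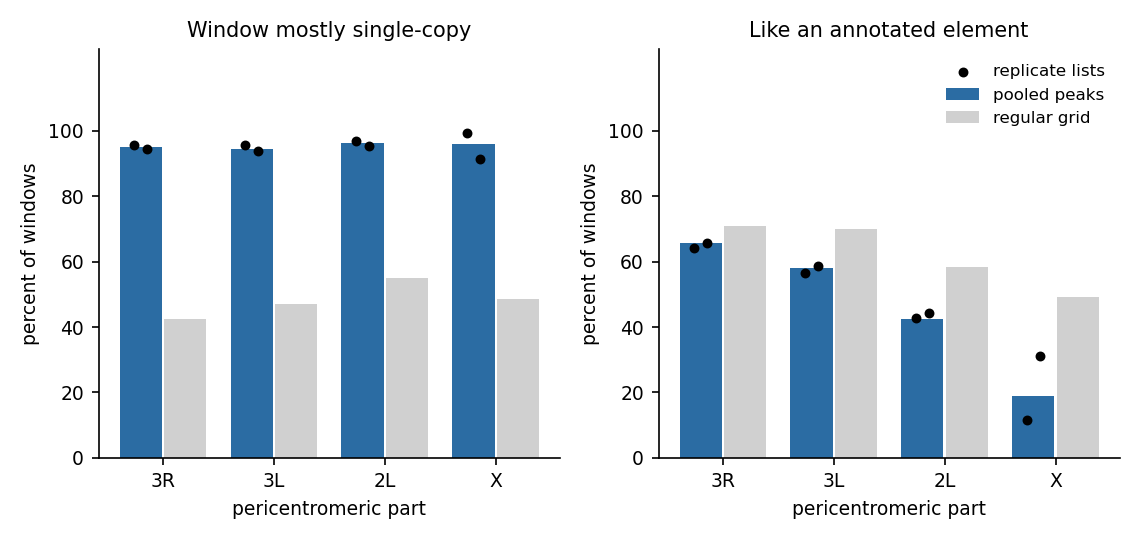
Percentage of 201-bp windows that are mostly single-copy (left) or aligned to an annotated element (right), for pooled peaks away from start sites in the pericentromeric parts of 3R, 3L, 2L and X (blue bars), for a regular grid under the same position rule (grey bars), and for each replicate's own list (points, replicate 4 to the left). On 3R 95.0% of peaks but 42.6% of grid windows are mostly single-copy, and 65.7% of peaks and 71.0% of grid windows are element-like.

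With the border at 4.2 Mb, the 3R peaks had the highest element-like share of the 4 parts and the longest median distance to a start site. With the border at 4.7 Mb the pooled element-like share on 3R was 57.1%, below the 58.0% on 3L. The element-like share was 57.7% ± 1.51 on 3L, 43.6% ± 1.05 on 2L and 21.3% ± 13.9 on X (SD, n = 2 replicate lists), against 65.0% ± 0.92 on 3R, and the 2 replicate values on 3R lay above both values of each other part. No test was made, and the mostly single-copy grid windows kept the same order, with 67.4% on 3R, 58.8% on 3L, 45.2% on 2L and 19.96% on X. Among the top peaks of each replicate, the element-like share of the 3R peaks was 74.8% ± 3.34, from 29 and 35 peaks, against 46.8% ± 5.26 on 3L and 52.2% ± 8.11 on 2L. Among the IDR peaks, 24 of 30 (80%) on 3R were element-like, against 34 of 68 (50%) on 3L, 16 of 28 (57.1%) on 2L and 131 of all 885 IDR peaks of the genome that lie away from start sites and elements (14.8%). The number is small, and 10 of the 30 belong to the 2 sequence groups. The median distance to the nearest start site was 75208 bp on 3R, 26254 bp on 3L, 8649 bp on 2L and 4177 bp on X.

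Few of the 3R peaks were strong. The 30 in the IDR list are 1.66% of the 1808, whereas 6.69% of all pooled peaks are in that list, start-site peaks included. Among pooled peaks of the whole genome away from start sites and elements, 885 of 21149 (4.18%) are. The top peaks of each replicate's own list included 29 such 3R peaks in replicate 4 and 35 in replicate 6, a mean of 32 ± 4.24 (SD, n = 2). The IDR share was higher on 3L, with 68 of 2643 peaks (2.57%), and on 2L, with 28 of 876 (3.20%), and lower on X, with 1 of 233 (0.429%). Per megabase of known sequence this was 7.18 IDR peaks on 3R, 13.6 on 3L, 18.5 on 2L and 0.677 on X, against totals of 433, 528.7, 578.7 and 157.8 peaks. In the same stretch of 3R, 8 of the 38 peaks at start sites (21.1%) and 0 of the 70 peaks inside annotated elements were in the IDR list. The start-site peaks of pericentromeric 3R were thus more often strong than those away from start sites, as counts without a test.

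The other 1778 peaks were weak and differed between the replicates. Signal values over the 1808 ran from 17.5 through a median of 29.6 to 2965, and the median over all pooled peaks was 32.4. Among the 1808, the lowest value in the IDR list was 125.8, at s1688847, and the highest outside it was 119.9, at s4052926. A q-value under 0.05 was given to 587 of the 1808 (32.5%), against 41.3% of all pooled peaks and 36.7% of those away from start sites and elements. In the replicate lists that share was 28.0% in replicate 4 and 50.1% in replicate 6, so the replicates differed by more than 3R did from all pooled peaks. A summit within 100 bp was found in the list of replicate 4 for 1062 (58.7%), in that of replicate 6 for 1111 (61.4%), in both for 564 (31.2%) and in neither for 199 (11.01%). Over all pooled peaks 69.0% were matched in replicate 4, 53.0% in replicate 6, 34.4% in both, close to the share on 3R, and 12.5% in neither. The share matched in both fell with rank, from 74.3% of the peaks ranked 31 to 100 by signal among the 1808 to 48.8% of those ranked 301 to 587 and 6.74% of those ranked 1201 to 1808. Of the 1808 peaks, 1722 (95.2%) had the fixed interval width of 430 bp, the commonest in the list, against 90.8% of all pooled peaks. All 30 IDR peaks had another width, whereas 21.4% of all IDR peaks of the genome had the width of 430 bp.

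**Figure D4:**
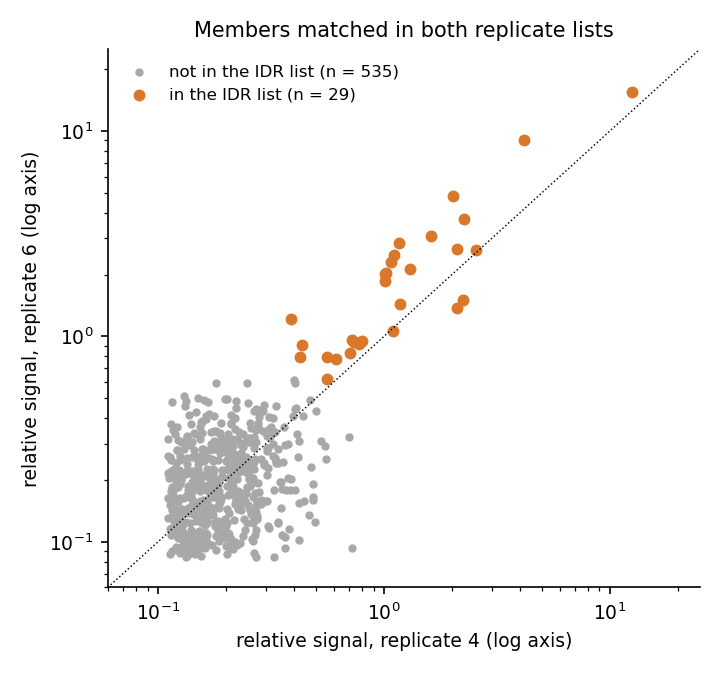
Relative signal in replicate 4 against replicate 6 (both log axes) for the 564 peaks matched in both replicate lists, 29 of them in the IDR list (large points) and 535 not (small points); the dotted line marks equal values. The IDR peaks lie mostly above the line, and the other peaks form a cloud on both sides of it.

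Most of the peaks lay in introns of 2 very long genes. By the position of the summit, 1353 (74.8%) were in introns, 402 (22.2%) between genes, 44 in coding exons, 6 in a 3' UTR, 1 in a 5' UTR and 2 in exons of non-coding transcripts. Myo81F, which spans 1965857 bp, held 879 (48.6%) and Pzl, which spans 709421 bp, held 337 (18.6%). That is 449.1 and 475.2 peaks per megabase of gene, so the counts follow the length of the genes. Inside genes there were 480.3 peaks per megabase and between genes 322.2, or 467.4 between genes when the first 400000 bp, which held 1 peak, are left out. IDR peaks numbered 11 in Myo81F, 6 in Pzl and 1 in CG42402, and 12 lay between genes, 3.0% of the 402 there against 1.28% of the 1406 inside genes. The share inside a gene was 77.9% ± 1.59 in the replicate lists (SD, n = 2), against 51.6% of pooled peaks on 3L, 46.6% on 2L and 64.4% on X. Genes cover 70.1% of the known sequence of pericentromeric 3R.

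Of the other 22 genes, 11 held peaks more densely than Myo81F and Pzl and 10 held none. Together they held 190 peaks, of which 1 (0.526%) was in the IDR list, against 1.28% of all peaks inside genes, a difference of few peaks. Parp1, which encodes poly(ADP-ribose) polymerase, held 71 peaks, with a highest signal value of 69.96. CG41099 held 30, or 1384 per megabase, with a highest signal value of 88.4. CG42402 held 26, spok 17, CG12581 and Gfat1, the hexosamine pathway enzyme, 11 each, Tim17b 10, Alg-2 6, CG41128 3, and CR33294 and beta-Man, which encodes beta-mannosidase, 2 each. Of the 14 protein-coding genes of the stretch, 13 held a peak away from start sites, as did 1 of 4 pseudogenes and 0 of 6 non-coding RNA genes. The rule allows no such peak in 4 of these non-coding RNA genes and 3 of the pseudogenes, which are shorter than 500 bp. Element-like windows made up 68.8% of the peaks in Myo81F and 65.3% in Pzl, but 33.3% in CG41099 and 0 of 11 in CG12581.

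Strong peaks were found both close to start sites and far from them. Of the 30 IDR peaks, 9 lay within 5000 bp of a start site, 0 between 5000 and 20000 bp, and 21 beyond 20000 bp, of which 11 were beyond 100000 bp. Peaks in general were not absent there, since 252 of the 1808 peaks lay between 5000 and 20000 bp, with a highest signal value of 104.2. With an IDR share of 1.66% over the 1808, only a few IDR peaks would fall among 252 in any case. The IDR share was 2 of 24 peaks up to 1000 bp (8.33%), 7 of 145 from there to 5000 bp (4.83%), 7 of 263 between 20000 and 50000 bp (2.66%), 3 of 424 from there to 100000 bp (0.708%) and 11 of 700 beyond (1.57%). With counts this low the classes were not tested against each other.

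**Figure D5:**
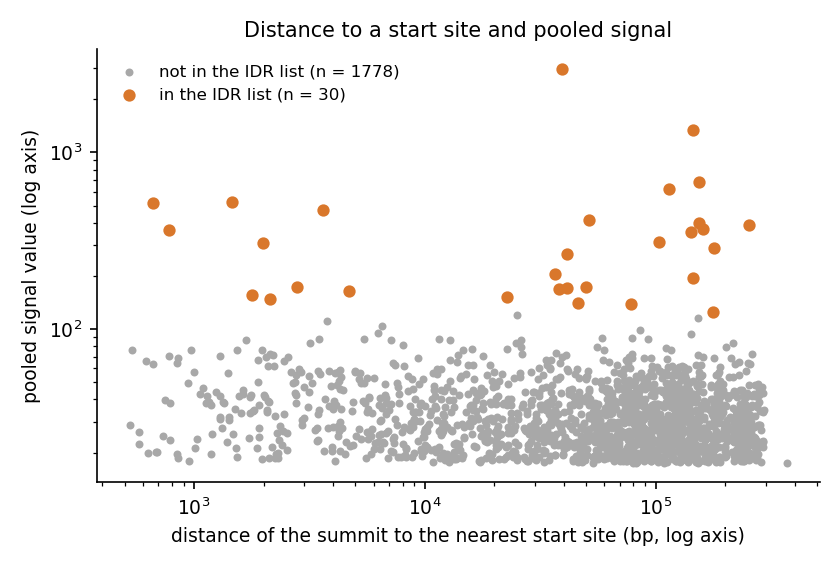
Pooled signal value against the distance of the summit to the nearest start site (both log axes) for the 1808 peaks; large points are the 30 IDR peaks and small points the other 1778. No IDR peak lies between 5000 and 20000 bp, where the highest signal value is 104.2.

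Along the stretch, the first 400000 bp held 1 peak, where 91.4% and 78.6% of bases in its first and second 200 kb are soft-masked. The 200 kb that holds s3789797, starting at 3600001, had the most peaks, 144, and the most IDR peaks, 7. The median signal there was 36.03, against 29.6 over the 1808. Medians in the other stretches of 200 kb with more than 1 peak ran from 26.5 to 35.0, so the peaks next to the border with the arm were a little stronger than those nearer the centromere.

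The windows were searched on both strands for 11 short motifs, and a match is given as a description. CGATA, which is also part of TATCGATA, was in 16 of the 30 IDR windows (53.3%), against 25.3% of the 1808, 26.5% of all pooled windows and 31.9% of all IDR windows. Of these 16 windows, 5 belong to the first sequence group. In the windows of s3118061 and s3118260, from the same called interval, CGATA occurred in the printed stretch. In those of s864692, s727296 and s2134551 it lay outside the printed stretch. TATCGATA, the motif of DREF and BEAF-32, was in 1 of the 30, that of s3734192, and in 0.940% of the 1808, against 2.35% of all pooled windows. CACGTG, an E-box, was in 2 of the 30, s3118061 and s2858650, and in 1.99% of the 1808, against 2.39%. AATATAAT, a stretch of a simple satellite repeat, was also in 2 of the 30, s3621160 and s1688847, and in 4.31% of the 1808, against 3.86%. CCGAGTACG, part of the dodeca satellite unit, was in 0 of the 30 and in 4 of the 1808 (0.221%), against 0.0767% of all pooled windows. The other 6 motifs were also in 0 of the 30. GAGAGAG, the motif of GAGA factor and Clamp, was in 2.38% of the 1808 and 3.69% of all pooled windows. The M1BP motif GGTCACACT was in 0.221% against 0.937%, and the Zelda motif CAGGTAG in 0.996% against 1.203%. The simple satellite stretches AAGAGAAGA and AACACAACA were in 0.332% and 0.664%, against 0.307% and 0.537%. AATAACATA, part of the satellite unit bound by Prod, was in 0.498% against 0.447%. The shorter GGTCACAC, added after the printed sequences of the first group had been seen, was in 3 of the 30, s3118061, s864692 and s727296, which are copies of one sequence. It was in 0.664% of the 1808, against 1.36% of all pooled windows and 2.24% of all IDR windows.

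Strong peaks had a lower GC content than weak ones. The mean GC share was 36.8% in the 30 IDR windows, 40.6% in the other 1778 and 34.2% over all IDR peaks of the genome. In the strongest peaks of the replicate lists it was 36.7% ± 1.08 (SD, n = 2), against 40.4% ± 0.252 over all 3R peaks of those lists. The mean soft-masked share was 38.6% in the 30 and 26.8% in the others. Among the summits of the 2 sequence groups it was above 38.6% at all but s2198484, s727296 and s2134551. Outside the groups it was above 38.6% only at s1213040, s2566090, s3788343 and s1688847. The higher mean of the 30 thus rests largely on copies of 2 sequences, and it was not compared without them.

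At the limits of the rule, the nearest peaks on either side were weak. Just inside the start-site limit lay peaks 527 bp from lncRNA:CR46431, 539 bp from spok and 576 bp from lncRNA:CR46141, with signal values of 28.8, 76.3 and 22.3. Just outside lay peaks 494 bp from Pzl, 491 bp from lncRNA:CR41601 and 486 bp from CG12581, with signal values of 30.03, 56.5 and 22.3. At the border with the arm, the last peaks inside were at 4199763 and 4198316, with signal values of 33.3 and 21.4, and the first outside were at 4202583 and 4202881, with 32.8 and 27.0, all nearest to beta-Man.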

How the data were processed

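The peak lists of 2 biological replicates, a pooled list and an IDR list were used. Per the deposited file listing, peaks were called on each replicate with a control, on both together with the same control for the pooled list, and the IDR list was drawn from the other 3. The build is dm6, per the labels, with sonicated fragments of 200 to 800 bp. The sources used here name neither aligner nor peak caller, nor how reads with several placements were treated. The signal value is the authors' score, on an unstated scale, and the deposited −log10 q-value reaches at most 3.98, which 95 of the 1808 peaks have. Control reads and read numbers are not analysed here, so depth is unknown. The lists stop at 30000 peaks and hold many weak calls.

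Summits were placed with the Ensembl release 115 annotation on the RefSeq copy of the same assembly, after chromosome lengths were checked. The pericentromeric parts end at 4.2 Mb on 3R and begin at 23 Mb on 3L and 22 Mb on 2L and X, as approximations. Windows of 201 bp were aligned with blastn 2.17.0 (word size 11, e-value 1e-05, at least 50 bp over the summit) to 5889 annotated elements. Copies of IDR peaks were sought with 501-bp windows (word size 15, e-value 1e-15, at least 100 bp), and the printed groups were aligned with mafft 7.526. Summit matching and word counting were tested on simulated data. With 1 group no test was made. Values are described beside all pooled peaks, with the mean ± SD of the 2 replicate lists where given.

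Named peaks were the 15 of highest signal, those at the limits of the rule and those a count singles out; named genes were the 12 that hold most peaks and the nearest genes. The peaks, lists and motifs were chosen with earlier results of these data known. The grid, the search for copies, the element-like share with its alternatives, the density between genes without the first 400000 bp, the distance and GC descriptions of IDR peaks and GGTCACAC were added after the data were examined.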

Additional observations from a re-analysis of the deposited data

How the results depend on the processing

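No paired analysis was possible because the result comes from no test. Of 93 recomputed values, 67 stayed within a set limit and 26 moved by more. For shares, means and medians the limit was 1 SD of the replicate lists. For the share matched in both lists it was the SD of the shares matched in each list. For counts the limit was a ratio, so 21 IDR peaks with the border at 3.7 Mb, against 30, stayed within it although the SD was 4.24. With the border at 4.7 Mb the element-like share was 57.1%, below the 58.0% on 3L, so the order of 3R and 3L turned. The upper 50% of the IDR list held 18 of the peaks. The share with a q-value under 0.05 was 28.0% to 50.1% without a replicate, and 15.3% had q under 0.01. The share matched in both replicate lists was 19.2% within 50 bp and 55.5% within 250 bp, and has no value without a replicate. Median relative signal was 0.145, with 0.168 to 0.175 without a replicate and 0.913 relative to the median of the whole list. The soft-masked share was 24.8% with the border at 4.7 Mb, 17.1% with soft-masked summits left out and 29.0% with 250 bp on each side. The share inside a gene was 88.8% with the border at 3.7 Mb. The 7 peaks in an interval with a start-site summit became 3 with a start-site distance of 1000 bp, 0 with the border at 3.7 Mb, 3 with 1 summit per interval and 3 to 6 without a replicate. Mean GC was 41.0% with the border at 4.7 Mb, 41.6% with soft-masked summits left out, 39.9% with 250 bp on each side and 40.2% to 40.6% without a replicate. The mostly single-copy share was 96.5% with soft-masked summits left out and 90.2% with 36-base words. The element-like share, whose alternatives were chosen after seeing the data, was 48.2% with at least 100 bp and 80% identity (59.4% on the grid), 61.0% with q under 0.05 and 64.3% to 65.6% without a replicate. Where a value moved, the cause was not tested. The list held 1476 peaks with the border at 3.7 Mb and 2090 at 4.7 Mb, and 199 of the 1808 peaks had no match in either replicate list.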
